A study of Homo sapiens with 16 samples.

Results

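HMCN1, RASGRP1, AIM1, LAMA4, TBX2, KCNS3 and PKP2 are 7 of the 56832 gene names in the count table, selected on their change in polysomal level in H69 cells when EIF6 is knocked down. That change is given here as a description, and calls made from it are not read as a test. What can be tested is how the same genes behaved in libraries that the choice did not use: cytoplasmic RNA of H69, both fractions of the second line H69M, and the control level of each line. The spread in these tests is estimated per gene over all 16 libraries, those that chose the members included. A call for a member is therefore not fully free of the choice. All 7 passed the filter on low counts, which kept 23100 genes.

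Both lines are labelled as small cell lung cancer (SCLC) cells and were grown in RPMI 1640 with 10% fetal bovine serum. Each was made into a stable line by lentivirus carrying either an shRNA against EIF6 (sheIF6, labelled as knockdown) or a control shRNA (shNTC, labelled wild type), so the controls were infected too. RNA came from a cytoplasmic lysate made with cycloheximide, which holds ribosomes on mRNA, or from the polysomal part of a sucrose gradient. Line, shRNA and fraction give 8 groups of 2 libraries: H69 sheIF6 and shNTC, and H69M sheIF6 and shNTC, each as polysomal and cytoplasmic RNA. Nothing in the labels tells whether the 2 libraries of a group came from different cultures. The p-values cover only the spread between 2 such libraries, pooled over the 8 groups and moderated across genes. That spread may be technical. With 2 libraries against 2, the smallest two-sided exact permutation p is 0.333, and tests therefore come from a fit across all genes in edgeR, with a Benjamini-Hochberg limit of 0.05.

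eIF6 sits on the 60S ribosomal subunit and blocks its union with the 40S subunit until it is released, so it acts both in making ribosomes and in starting translation. An mRNA that many ribosomes read at once sediments with polysomes, and its amount there reflects both how much of the mRNA there is and how much of it is engaged. The 7 genes belong to unlike processes. HMCN1 and LAMA4 encode extracellular matrix proteins, RASGRP1 an activator of Ras, TBX2 a transcription factor, KCNS3 a modulatory potassium channel subunit and PKP2 a plaque protein of desmosomes. AIM1, now named CRYBG1, encodes a protein with beta-gamma crystallin domains that is known to bind actin.

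RefSeq promoter entries, covering 250 bases before to 50 bases after an annotated start, were matched for RASGRP1, AIM1, LAMA4 and KCNS3. Shown are 1 window each for RASGRP1 and AIM1, which were lower in the H69 knockdown, and for KCNS3, which was higher. All are from GRCh38.p14, printed 5′ to 3′ on the strand of the gene: RASGRP1 is chr15:38564765-38565064 on the minus strand, the downstream AIM1 start is chr6:106511605-106511904 on the plus strand, and the upstream KCNS3 start is chr2:17877597-17877896 on the plus strand.
RASGRP1: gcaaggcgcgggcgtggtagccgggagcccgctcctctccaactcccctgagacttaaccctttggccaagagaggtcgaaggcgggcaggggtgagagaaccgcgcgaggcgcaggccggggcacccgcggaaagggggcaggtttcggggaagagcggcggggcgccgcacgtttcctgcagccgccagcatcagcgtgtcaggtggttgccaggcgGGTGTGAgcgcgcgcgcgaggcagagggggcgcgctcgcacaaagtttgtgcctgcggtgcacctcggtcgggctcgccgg
AIM1: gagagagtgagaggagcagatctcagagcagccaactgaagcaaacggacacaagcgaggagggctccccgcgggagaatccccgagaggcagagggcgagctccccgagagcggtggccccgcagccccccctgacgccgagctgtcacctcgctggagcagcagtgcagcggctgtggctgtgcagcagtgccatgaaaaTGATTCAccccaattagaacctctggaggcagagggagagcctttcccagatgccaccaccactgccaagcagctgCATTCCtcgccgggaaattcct
KCNS3: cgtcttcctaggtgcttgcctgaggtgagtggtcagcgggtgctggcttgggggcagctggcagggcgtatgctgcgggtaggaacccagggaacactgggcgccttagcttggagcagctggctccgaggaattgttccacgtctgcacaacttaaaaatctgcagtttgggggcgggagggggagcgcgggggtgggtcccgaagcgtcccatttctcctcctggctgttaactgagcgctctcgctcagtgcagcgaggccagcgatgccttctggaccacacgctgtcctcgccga
Capitals mark matches, on either strand, to 3 motifs: the AP-1 site TGANTCA, the TEAD site GGAATG and the T-box half-site GGTGTGA. RASGRP1 holds a T-box half-site at position -31 relative to the start, and the AIM1 window holds an AP-1 site at -48 and a TEAD site, read as CATTCC on the printed strand, at 28. The KCNS3 window, the other windows of AIM1 and KCNS3 and that of LAMA4 hold none of the 3. Matches did not overlap. Among 35116 RefSeq promoter windows of this length 7.71% hold the AP-1 letters, 14.03% the TEAD letters and 3.45% the T-box letters, and a match is a description, not a binding site.

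Library totals ran from 36005326 to 87269772 counts, and the 2 libraries of a group differed by 24.8 to 244 times the variance that counting alone gives. EIF6 mRNA stood at 58.1% of control in H69 cytoplasmic RNA and 55.9% in H69 polysomal RNA, and at 69.9% and 42.4% in H69M. Groups did not overlap in any setting. Of all genes tested, 34.3% did not overlap in H69 cytoplasmic RNA and 22.7% in H69 polysomal RNA, and 39.8% and 32.6% in H69M. The edgeR fit called EIF6 in no setting (lowest adjusted p = 0.204, H69M polysomal RNA). With a block for the replicate number within each line EIF6 was not called either (lowest adjusted p = 0.0884, same setting). Same-numbered H69M polysomal libraries gave 26.7% and 67.3% of control. The 5 neuroendocrine markers INSM1, CHGA, SYP, NCAM1 and NEUROD1 summed to 129 to 538 CPM (read counts relative to the TMM-scaled library size) in the 8 H69M libraries and to 1420 to 3211 CPM in the 8 H69 libraries. The 6 non-neuroendocrine markers REST, YAP1, VIM, AXL, CD44 and HES1 summed to 2811 to 5276 CPM in H69M and 87.9 to 261.5 CPM in H69; REST was at 0 in 6 of the 8 H69 libraries, AXL in 4, YAP1 in 3 and VIM in 1. The 2 lines thus differ in these markers, although both carry the same cell type label. H69 shNTC cytoplasmic replicate 1 stood apart: 65 genes high in H69M and near 0 in H69 summed to 0.262% of their H69M level there, against 0.0183 to 0.0376% in the other 7 H69 libraries. Genes of H69 that were low in H69M summed to 11.8% of their H69 level in H69M shNTC polysomal replicate 2 and 7.78% in H69M sheIF6 polysomal replicate 2, against 0.644 to 2.28% in the other 6 H69M libraries.

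In H69 every member separated knockdown from control libraries in both fractions, 5 lower and 2 higher (22.7% of all genes did so in polysomal RNA). In the fraction that chose them, 1 of the 7 was called without a replicate block (1 gene in all, 0.00433% of those tested) and all 7 with a block for the replicate number within each line (25 genes, 0.108%). The choice used this fraction, so these calls are descriptions and not a test of the members. TBX2 and PKP2 lay nearest the limit of the blocked fit (adjusted p = 0.0409 each); PAPLN and CLEC1A were the last genes inside it (0.0456) and CSDC2 and BTN3A2 the first outside (0.0507). In cytoplasmic RNA, which the choice did not use, all 7 stood on the same side of control as in polysomal RNA and none overlapped between groups, where 34.3% of all genes tested did not overlap. None of the 7 passed the limit in edgeR, and neither did any gene (0%; 696 at an unadjusted p under 0.05, 78 genes called by DESeq2 and 0 by limma-voom). The blocked fit called 1 gene of all, not a member (0.00433%), with HMCN1, LAMA4, RASGRP1 and AIM1 at adjusted p = 0.0555. DESeq2 called 5 of the 7 (HMCN1, RASGRP1, AIM1, TBX2 and KCNS3). The members' median log2 change was -1.60 in cytoplasmic RNA and -1.91 in polysomal RNA, beside -0.0081 and 0 over all genes tested. The 2 fractions are not independent views: same-numbered H69 libraries deviated from their group means together (r = 0.168 to 0.280 over 6 pairs of groups). In bulk RNA, a change in the number of cells that express a gene and a change in its RNA per cell cannot be told apart.

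**Figure D1:**
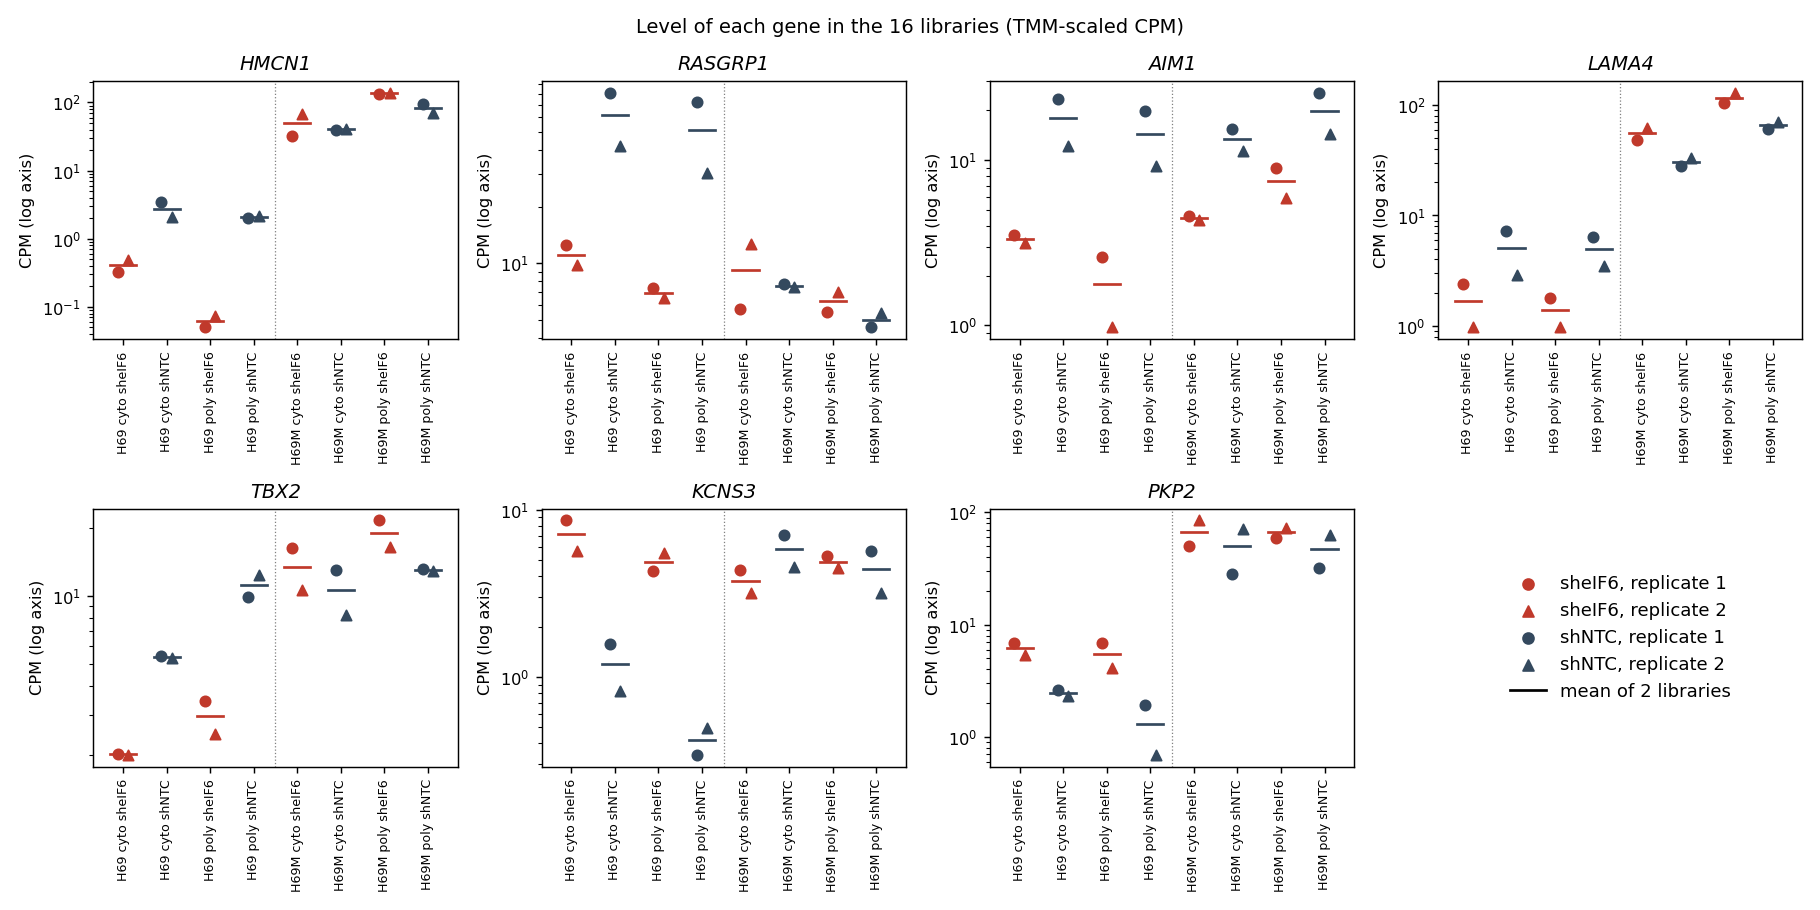
Level of each gene in TMM-scaled CPM (vertical axis, logarithmic) in the 16 libraries, by line, fraction and shRNA; red marks sheIF6, dark marks shNTC, circles and triangles are replicates 1 and 2 and bars are means of 2. In H69 the 2 sheIF6 libraries lie apart from the 2 shNTC libraries for all 7 genes in both fractions, while in H69M the groups overlap for 4 genes in cytoplasmic and 2 in polysomal RNA.

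HMCN1 encodes hemicentin 1, a very large matrix protein with immunoglobulin domains, and lies on GRCh38 chromosome 1 (185734551 to 186190949, plus strand). In H69 polysomal RNA it was at 0.0505 and 0.0731 CPM in sheIF6 libraries, which are 2 and 3 counts, against 2.00 and 2.18 CPM in shNTC libraries. Summed over libraries the knockdown level was 2.97% of control (95% exact binomial interval 0.950 to 7.06%, counting error only; fitted log2 change -5.02). A level of this size is close to what the H69M-gene share of those libraries would give if HMCN1 came with it (0.0482 and 0.0399 CPM); whether it did was not tested. Cytoplasmic RNA gave 0.329 and 0.489 CPM in sheIF6 libraries against 3.44 and 2.06 CPM in shNTC libraries, a log2 change of -2.74 (SE 0.393, adjusted p = 0.175). The HMCN1 expected from the H69M-gene share of the control library that stood apart is 0.105 of its 3.44 CPM. The cytoplasmic value passed the limit without H69 shNTC cytoplasmic replicate 2 (-3.06, adjusted p = 0.0197) or without H69M sheIF6 cytoplasmic replicate 1 or 2 (-2.74 each, adjusted p = 0.0430 and 0.0451). The polysomal call, used to choose the gene, did not hold when H69 sheIF6 polysomal replicate 1 (-4.79, adjusted p = 0.0764) or replicate 2 (-5.30, adjusted p = 0.160) was left out.

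In H69M the same gene was far more abundant and did not follow this pattern. HMCN1 stood at 135 and 139 CPM in sheIF6 polysomal libraries and 94.6 and 70.2 CPM in shNTC polysomal libraries, with no overlap (log2 0.73, SE 0.331, adjusted p = 0.609). In cytoplasmic RNA it was at 32.1 and 67.1 CPM in sheIF6 libraries against 39.6 and 40.9 CPM in shNTC libraries, so the knockdown libraries lay on both sides of the controls (log2 0.30, SE 0.330, adjusted p = 0.792). From the highest to the lowest group mean the order was H69M polysomal, H69M cytoplasmic, H69 shNTC and H69 sheIF6; within H69M the 2 cytoplasmic groups overlap, and so do the 2 H69 shNTC groups in their range, from 2.00 to 3.44 CPM.

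LAMA4 encodes the laminin alpha 4 chain, a basement membrane component known from vessels and muscle (chromosome 6, 112108760 to 112254939, minus strand). On H69 polysomes it was at 1.79 and 0.975 CPM in sheIF6 libraries against 6.44 and 3.46 CPM in shNTC libraries (log2 -1.84). Cytoplasmic RNA gave 2.39 and 0.978 CPM in sheIF6 libraries against 7.28 and 2.90 CPM in shNTC libraries. Libraries numbered 1 were above those numbered 2 in every H69 group, and the higher knockdown value of 2.39 CPM was close to the lower control value. The cytoplasmic log2 change was -1.60 (SE 0.493, adjusted p = 0.857; blocked -1.58, adjusted p = 0.0555), and it was -0.78 without H69 shNTC cytoplasmic replicate 1. In H69M LAMA4 stood on the other side: 48.7 and 62.5 CPM in sheIF6 cytoplasmic libraries against 27.8 and 33.3 CPM in shNTC cytoplasmic libraries (log2 0.86, SE 0.466, adjusted p = 0.528; blocked adjusted p = 0.0556). On H69M polysomes it was at 103.5 and 129 CPM in sheIF6 libraries against 60.9 and 69.9 CPM in shNTC libraries (log2 0.83, SE 0.465, adjusted p = 0.689). Knockdown and control did not overlap in either H69M fraction.

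RASGRP1 encodes a guanine nucleotide exchange factor that diacylglycerol and calcium recruit to load Ras with GTP, best known from lymphocytes (chromosome 15, 38488103 to 38565575, minus strand; its promoter is the first printed above). H69 polysomal libraries had 7.35 and 6.53 CPM in sheIF6 libraries against 72.2 and 30.3 CPM in shNTC libraries (log2 -2.88). Cytoplasmic RNA gave 12.5 and 9.78 CPM in sheIF6 libraries against 81.2 and 42.1 CPM in shNTC libraries (log2 -2.47, SE 0.465, adjusted p = 0.380). The knockdown libraries were close to each other, whereas the control numbered 1 was 1.93 times that numbered 2 in cytoplasmic RNA and 2.38 times in polysomal RNA. Without H69 shNTC cytoplasmic replicate 2 the cytoplasmic value passed (-2.87, adjusted p = 0.0451), and over the 16 single omissions it ran from -2.87 to -1.92. H69M gave 5.72 and 12.6 CPM in sheIF6 cytoplasmic libraries against 7.72 and 7.46 CPM in shNTC cytoplasmic libraries, which overlap (log2 0.27, SE 0.445, adjusted p = 0.886). On H69M polysomes RASGRP1 was at 5.53 and 7.01 CPM in sheIF6 libraries against 4.57 and 5.44 CPM in shNTC libraries, which do not (log2 0.32, SE 0.449, adjusted p = 0.923). In H69M shNTC polysomal replicate 2 the share of H69 genes would by itself give 6.07 CPM of RASGRP1, above the 5.44 CPM measured; the part of that share in the result was not tested.

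AIM1 had lower levels in the knockdown than in the control libraries in all 4 settings, without overlap. The table uses this older name, whose locus in GENCODE v29 is CRYBG1 (chromosome 6, 106360808 to 106571978, plus strand); AURKB and SLC45A2, which share the alias, have their own rows. Polysomal RNA of H69 gave 2.58 and 0.975 CPM in sheIF6 libraries against 19.7 and 9.28 CPM in shNTC libraries (log2 -3.03). Cytoplasmic RNA of H69 gave 3.54 and 3.14 CPM in sheIF6 libraries against 23.5 and 12.3 CPM in shNTC libraries (log2 -2.42, SE 0.531, adjusted p = 0.458). Knockdown levels lay well below both controls in each fraction. In H69M cytoplasmic RNA it was at 4.60 and 4.32 CPM in sheIF6 libraries against 15.5 and 11.4 CPM in shNTC libraries (log2 -1.59, SE 0.516, adjusted p = 0.300), and this change passed with the block within each line (-1.57, adjusted p = 0.0356; 268 genes, 1.16%). H69M polysomal RNA gave 9.01 and 5.94 CPM in sheIF6 libraries against 25.6 and 14.3 CPM in shNTC libraries (log2 -1.42, SE 0.513, adjusted p = 0.468; blocked adjusted p = 0.0655, with 203 genes or 0.879% called). The 4 sheIF6 cytoplasmic libraries of the 2 lines span 3.14 to 4.60 CPM and the 4 shNTC ones 11.4 to 23.5 CPM.

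TBX2 encodes a T-box transcription factor that mostly represses its targets, among them cell cycle inhibitors (chromosome 17, 61399896 to 61409466, plus strand). In H69 polysomal RNA it was at 3.46 and 2.46 CPM in sheIF6 libraries against 9.89 and 12.4 CPM in shNTC libraries (log2 -1.91). Cytoplasmic RNA gave 2.02 and 2.00 CPM in sheIF6 libraries against 5.45 and 5.34 CPM in shNTC libraries (log2 -1.42, SE 0.343, adjusted p = 0.609). Its libraries repeated closely there, and single omissions moved the value only between -1.44 and -1.41, while the spread used in the test is shared with all groups. In H69M TBX2 was at 16.3 and 10.6 CPM in sheIF6 cytoplasmic libraries against 13.1 and 8.25 CPM in shNTC cytoplasmic libraries, which overlap (log2 0.34, SE 0.332, adjusted p = 0.763). H69M polysomes gave 21.5 and 16.5 CPM in sheIF6 libraries against 13.2 and 12.9 CPM in shNTC libraries, without overlap (log2 0.54, SE 0.332, adjusted p = 0.717).

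KCNS3 and PKP2 are the 2 members with higher levels in the H69 knockdown. KCNS3 encodes Kv9.3, a subunit that forms no channel alone and modifies Kv2 channels (chromosome 2, 17877847 to 18361616, plus strand; promoter above). On polysomes of H69 it was at 4.29 and 5.51 CPM in sheIF6 libraries against 0.342 and 0.495 CPM in shNTC libraries (log2 3.54). Cytoplasmic RNA gave 8.625 and 5.65 CPM in sheIF6 libraries against 1.58 and 0.820 CPM in shNTC libraries (log2 2.57, SE 0.496, adjusted p = 0.380; blocked adjusted p = 0.0729). In both fractions the lower knockdown library lay well above the higher control. In H69M the knockdown cytoplasmic libraries were below the controls, at 4.36 and 3.18 CPM in sheIF6 against 7.07 and 4.54 CPM in shNTC (log2 -0.62, SE 0.466, adjusted p = 0.660). On H69M polysomes they overlapped, at 5.29 and 4.49 CPM in sheIF6 against 5.63 and 3.17 CPM in shNTC (log2 0.15, SE 0.466, adjusted p = 0.984; -0.20 without H69M shNTC polysomal replicate 2). Of the 4 H69 sheIF6 libraries 3 lay within the range of the H69M libraries, 3.17 to 7.07 CPM, and all 4 H69 shNTC libraries lay below it.

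PKP2 encodes plakophilin 2, which links desmosomal cadherins to desmoplakin and intermediate filaments (chromosome 12, 32790745 to 32896840, minus strand). Polysomal H69 libraries had 6.84 and 4.12 CPM in sheIF6 libraries against 1.92 and 0.693 CPM in shNTC libraries (log2 2.07). Cytoplasmic RNA gave 6.85 and 5.42 CPM in sheIF6 libraries against 2.62 and 2.30 CPM in shNTC libraries (log2 1.32, SE 0.527, adjusted p = 1; blocked adjusted p = 0.231). These 2 groups did not overlap, but PKP2 had the smallest cytoplasmic change of the 7. In H69M cytoplasmic RNA it was at 50.3 and 84.8 CPM in sheIF6 libraries against 28.4 and 71.5 CPM in shNTC libraries (log2 0.44, SE 0.505, adjusted p = 0.808). H69M polysomes gave 59.5 and 73.1 CPM in sheIF6 libraries against 31.7 and 63.0 CPM in shNTC libraries (log2 0.48, SE 0.505, adjusted p = 0.873). Knockdown and control overlapped in both H69M fractions, and the cytoplasmic value was -0.076 without H69M shNTC cytoplasmic replicate 1.

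By group mean, HMCN1, LAMA4 and TBX2 were highest in H69M sheIF6 polysomal RNA, AIM1 in H69M shNTC polysomal RNA, RASGRP1 in H69 shNTC cytoplasmic RNA and KCNS3 in H69 sheIF6 cytoplasmic RNA. PKP2 was highest in both H69M sheIF6 groups, which overlap. The lowest group mean was in H69 sheIF6 polysomal RNA for HMCN1, AIM1 and LAMA4, in H69 sheIF6 cytoplasmic RNA for TBX2, in H69 shNTC polysomal RNA for KCNS3 and PKP2, and in H69M shNTC polysomal RNA for RASGRP1. The highest 2 groups overlapped for RASGRP1, AIM1, KCNS3 and PKP2, and did not for HMCN1, LAMA4 and TBX2.

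**Figure D2:**
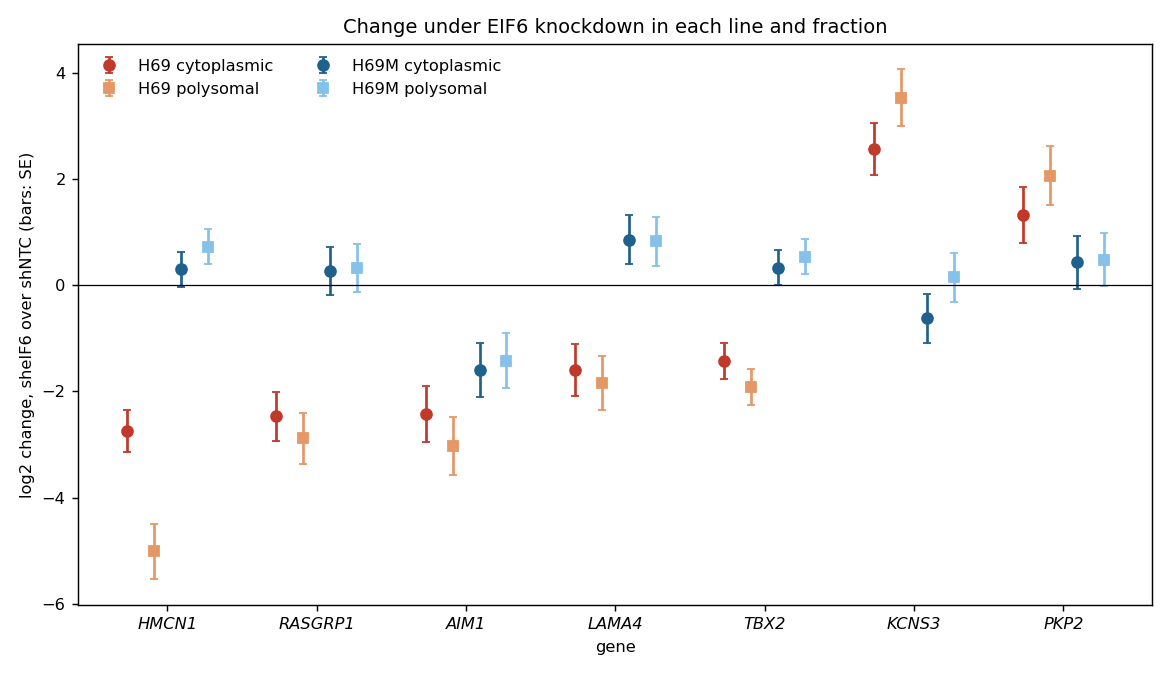
Log2 change of sheIF6 over shNTC (vertical axis) for the 7 genes in cytoplasmic (circles) and polysomal (squares) RNA of H69 (red and orange) and H69M (dark and light blue), with the SE of the edgeR fit as bars. HMCN1, RASGRP1, LAMA4 and TBX2 lie below 0 in H69 and above 0 in H69M, AIM1 lies below 0 in all 4 settings, and KCNS3 and PKP2 lie above 0 in H69; the H69 polysomal values chose the genes.

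In H69M 0 of 7 members passed the limit in cytoplasmic RNA (36 genes, 0.156%; 2537 at an unadjusted p under 0.05) and 0 of 7 in polysomal RNA (15 genes, 0.0649%; 1882). DESeq2 called 458 and 336 genes there, and no member. Groups did not overlap for 3 of 7 members in H69M cytoplasmic RNA, where 39.8% of all genes did not, and for 5 of 7 in H69M polysomal RNA, where 32.6% did not. The direct comparison of the 2 lines is the difference of their cytoplasmic knockdown changes, H69 minus H69M. It was -3.04 for HMCN1 (SE 0.512, adjusted p = 0.102), -2.74 for RASGRP1 (SE 0.637, adjusted p = 0.439), -2.46 for LAMA4 (SE 0.678, adjusted p = 0.546) and -1.76 for TBX2 (SE 0.476, adjusted p = 0.519). KCNS3 differed by 3.19 (SE 0.676, adjusted p = 0.285), while AIM1 and PKP2 differed by -0.83 (SE 0.716) and 0.88 (SE 0.725). None of the 7 passed (7 genes, 0.0303%; 1138 at an unadjusted p under 0.05). With the block within each line LAMA4 passed (-2.44, SE 0.282, adjusted p = 0.00930), where 32 genes in all did (0.139%). In that fit HMCN1, RASGRP1 and KCNS3 had adjusted p = 0.0586, 0.0601 and 0.0627, TBX2 0.142, PKP2 0.703 and AIM1 0.737. The spread of the blocked fit also uses the libraries that chose the members, so the LAMA4 call is not free of that choice. DESeq2 called HMCN1, RASGRP1, TBX2 and KCNS3 (95 genes). In data simulated at this design of libraries, a 4-fold difference between lines was called for 3 of 50 genes and an 8-fold one for 27.

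H69M against H69 in control cells compares the levels of the lines without knockdown, in cells infected with the control shRNA. In cytoplasmic RNA 6 of 7 members passed, where 30.2% of all genes did. PKP2 stood 20.3-fold higher in H69M, at 28.4 and 71.5 CPM against 2.62 and 2.30 CPM in H69 (log2 4.34, SE 0.584, adjusted p = 0.000148). HMCN1 was 14.6-fold higher (log2 3.87, SE 0.374, adjusted p = 1.26e-05), LAMA4 6.0-fold (2.58, SE 0.494, adjusted p = 0.00169) and KCNS3 4.83-fold (2.27, SE 0.491, adjusted p = 0.00375). RASGRP1 went the other way, with 7.72 and 7.46 CPM in H69M against 81.2 and 42.1 CPM in H69 (log2 -3.02, SE 0.477, adjusted p = 0.000441). These 5 calls held in all 16 single omissions. The size moved most for PKP2, which was 3.53 without H69M shNTC cytoplasmic replicate 2 and 4.86 without replicate 1 (blocked 3.48), and for LAMA4, which was 3.40 without H69 shNTC cytoplasmic replicate 1 and 2.07 without replicate 2. TBX2 passed narrowly (0.98, SE 0.336, adjusted p = 0.0418) and was called in 6 of the 16 omissions; it was 0.62 without H69M shNTC cytoplasmic replicate 1 and 0.97 to 1.00 without either H69 shNTC cytoplasmic library. It was also lost with total-size scaling (adjusted p = 0.0912), without the low-count filter (0.0804), by limma-voom (0.0548) and when both H69 shNTC libraries numbered 1 (0.161) or both H69M polysomal libraries numbered 2 (0.0540) were left out. AIM1 did not pass (-0.41, SE 0.503, adjusted p = 0.585) and was 0.14 without H69 shNTC cytoplasmic replicate 1. This comparison shares the H69 shNTC cytoplasmic libraries with the H69 knockdown comparison.

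Polysomal against cytoplasmic RNA compares the level of a member in polysomal RNA with that in RNA of the cytoplasmic lysate. Both levels are relative to the other RNAs of their library, so a ratio is not the share of an mRNA on polysomes. In control H69M none passed (1085 genes did, 4.70%). LAMA4 was at 60.9 and 69.9 CPM in polysomal RNA against 27.8 and 33.3 CPM in cytoplasmic RNA (log2 1.10, SE 0.468, adjusted p = 0.206). With the block it was 1.10 (adjusted p = 0.00574, with 11.1% of genes called). HMCN1 was at 94.6 and 70.2 CPM on polysomes against 39.6 and 40.9 CPM (log2 1.03, SE 0.333, adjusted p = 0.0952), and passed by DESeq2 (adjusted p = 0.0304) and without H69M sheIF6 cytoplasmic replicate 1 or 2 (1.04 each, adjusted p = 0.0483 and 0.0498). The other 5 lay between -0.60 for RASGRP1 and 0.57 for AIM1. In knockdown H69M HMCN1 and LAMA4 were again the highest, with log2 ratios of 1.46 (SE 0.336, adjusted p = 0.0313) and 1.07 (SE 0.467, adjusted p = 0.237). HMCN1 was the 1 member of 7 that passed there (4.17% of genes did), and with the block LAMA4 passed as well (1.07, adjusted p = 0.00663; HMCN1 1.49, adjusted p = 0.0172; 9.35% of genes). The HMCN1 call held in 11 of the 16 single omissions, with values from 1.02 without H69M sheIF6 cytoplasmic replicate 1 (adjusted p = 0.183) to 2.08 without replicate 2, and was lost with total-size scaling (1.28, adjusted p = 0.0640). In H69 the ratios involve the libraries that chose the members and are descriptions. HMCN1 had -2.67 in H69 sheIF6 and -0.40 in H69 shNTC, a difference of -2.28 (SE 0.691). Its sheIF6 ratio rests on 2 and 3 polysomal counts, which are 0.0505 and 0.0731 CPM. The H69M-gene share of those libraries would give 0.0482 and 0.0399 CPM, so the ratio is a value near the floor. KCNS3 had -0.54 in sheIF6 and -1.51 in shNTC, and TBX2 0.56 in sheIF6 and 1.05 in shNTC. For RASGRP1 and LAMA4 the knockdown and control ratios differed by less than the SE of that difference (0.626 and 0.691), as the plot of ratios shows; for AIM1 the SE was 0.721, and with the block the difference was -0.75 with an SE of 0.448.

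**Figure D3:**
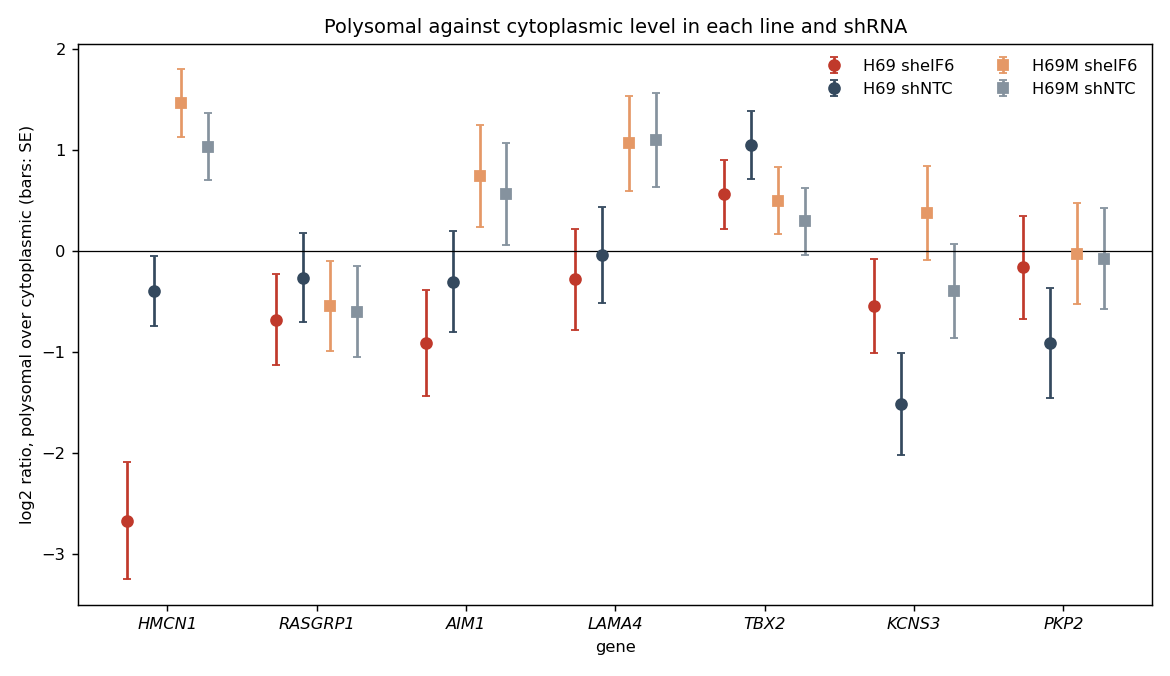
Log2 ratio of polysomal over cytoplasmic level (vertical axis) for the 7 genes in sheIF6 and shNTC cells of H69 (red and dark circles) and H69M (orange and grey squares), with the SE of the edgeR fit as bars. HMCN1 lies at -2.67 in H69 sheIF6 and at 1.46 and 1.03 in H69M sheIF6 and shNTC; LAMA4 lies near 0 in H69 and above 1 in H69M.

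Relatives of the members, taken from lists of their families, did not pass the limit in H69 without the block, although single changes were as large as those of members. Of 20 other laminin, nidogen, hemicentin and fibulin genes tested, 0 passed in any of the 4 knockdown settings. Over all genes tested, 0% passed in H69 cytoplasmic RNA and 0.00433%, HMCN1 alone, in H69 polysomal RNA. The shares in H69M were 0.156% in cytoplasmic and 0.0649% in polysomal RNA. Log2 changes of these 20 relatives in H69 cytoplasmic RNA ran from -1.20 to 0.87, with a median of 0.0082. LAMC1 and LAMB1, the gamma 1 and beta 1 chains that can join the alpha 4 chain, had -0.056 (164 ± 45.3 CPM in sheIF6 and 170.3 ± 37.5 CPM in shNTC, SD, n = 2) and 0.016 (157 ± 11.7 CPM in sheIF6 and 155 ± 0.477 CPM in shNTC) there. Of 5 other Ras exchange factors, SOS1 and SOS2 had -0.23 and -0.10, and RASGRP3 was at 0.102 ± 0.0283 CPM in sheIF6 and 0.09995 ± 0.141 CPM in shNTC in H69, near the limit of detection; the 5 ran from -1.24 to 0.045. Of 11 other T-box genes, which ran from -1.75 to 1.58, TBX3, the closest relative of TBX2, had 0.011 (17.0 ± 2.31 CPM in sheIF6 and 16.9 ± 0.246 CPM in shNTC). Of 8 other genes of the silent Kv and Kv2 group, which ran from -2.41 to 1.51, KCNB2, a partner that Kv9.3 can modify, had 0.24 (23.5 ± 5.83 CPM in sheIF6 and 19.8 ± 1.09 CPM in shNTC). Of 10 other desmosome genes, DSP and JUP, for desmoplakin and plakoglobin, had 0.096 and 0.45, while the 10 ran from -4.28 to 2.08, the upper end being DSG2, a desmosomal cadherin. DSG2 was at 30.25 ± 5.31 CPM in sheIF6 and 7.14 ± 0.162 CPM in shNTC in H69 cytoplasmic RNA (log2 2.08, SE 0.531, adjusted p = 0.631; blocked 2.04, adjusted p = 0.105), a change larger than that of PKP2, and at 22.4 ± 15.1 CPM in sheIF6 and 5.15 ± 2.46 CPM in shNTC in H69 polysomal RNA (log2 2.12). In these lists 0 genes besides HMCN1 passed in either H69 fraction. No other gene tested passed there either, so this does not set the relatives apart. With the block within each line DSP was higher in knockdown H69M (1.32 in cytoplasmic RNA, adjusted p = 0.0165; 1.58 in polysomal RNA, adjusted p = 0.0101). DSG2 was lower there (-2.16, adjusted p = 0.0175; -1.88, adjusted p = 0.0402), at 8.25 ± 4.69 CPM in sheIF6 and 36.0 ± 15.4 CPM in shNTC in cytoplasmic RNA. Its cytoplasmic knockdown change in H69 minus that in H69M was 4.21 (SE 0.751, adjusted p = 0.142; blocked 4.19, adjusted p = 0.0123). CRYBG2 was lower in H69M polysomal RNA in the same fit (-2.13, adjusted p = 0.0479).

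Between the lines, in control cytoplasmic RNA, 11 of 22 basement membrane and fibulin genes were higher in H69M and 2 lower, and 6 of 11 desmosome genes were higher and 1 lower, beside 16.2% higher and 14.1% lower over all genes. The Ras exchange factors had 2 of 6 higher and 1 lower, and the T-box genes 1 of 12 in each direction. These counts include the members. HMCN1, LAMA4 and PKP2 are among the higher genes, the lower Ras exchange factor is RASGRP1 and the higher T-box gene is TBX2.

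Across the 8 H69 libraries the 5 members that were lower followed one another, with Pearson r of log2 CPM from 0.70 for HMCN1 with TBX2 to 0.975 for AIM1 with RASGRP1. KCNS3 and PKP2 correlated at 0.874, and KCNS3 opposed TBX2 most closely (r = -0.960). Among 14757 genes of at least 1 CPM, those most like RASGRP1 were TM2D3, FAM84B and PTPRS (r = 0.986 to 0.988), and FAM84B and PTPRS were also among the 3 most like AIM1, with RORB (0.980 to 0.988). HMCN1 was most like BMPR1B, CALCRL and SPIRE1 (0.978 to 0.985), LAMA4 like CLVS1, DUSP16 and UMODL1 (0.979 to 0.983) and TBX2 like CALM3, SLC20A1 and GRIN1 (0.965 to 0.989). KCNS3 was most like RP11-382H24.3, RP11-598F7.4 and SLC9A5 (0.967 to 0.992), and PKP2 like A4GALT, PXYLP1 and DSG2 (0.953 to 0.970). All these libraries share the knockdown and fraction groups, and the 4 polysomal ones chose the members, so the correlations are descriptions.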

How the data were processed

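The table deposited by the authors holds raw read counts per gene name for 16 libraries; STAR, HTSeq and the human genome GRCh38 (hg38) are named in the submitters' processing notes, without versions, annotation or strand setting. Without strand, reads of members and overlapping antisense genes cannot be told apart: GENCODE v29 places exons on the opposite strand over 105 exon bases of RASGRP1, 206 of LAMA4, 122 and 8 of AIM1 and 28 of TBX2.

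The analysis used edgeR 4.0.16 in R 4.3.3, with filterByExpr (minimum count 10), TMM scaling and 1 robust quasi-likelihood model holding 8 group means (8 residual degrees of freedom, common dispersion 0.153). Benjamini-Hochberg adjustment covered the 23100 genes tested, with a limit of 0.05. An SE is |log2 change| over the root of the F statistic. CPM are TMM-scaled, and log2 CPM used a prior count of 2. The 2 libraries of a group had log CPM correlations of 0.951 to 0.982, so their spread, not depth, limits all but the lowest values. Alternatives were RLE or total-size scaling, DESeq2 1.42.0, limma-voom (limma 3.58.1), no low-count filter or one that needs 50 counts in 2 or more libraries, a replicate block over both lines or within each line, leaving out each library, and leaving out both H69 shNTC libraries numbered 1; leaving out both H69M polysomal libraries numbered 2 was added after seeing the data, as was trying all of these on HMCN1 in polysomal against cytoplasmic RNA of knockdown H69M.

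Pairing by replicate number was checked from deviations from the group means: r was 0.168 to 0.280 in H69 and 0.172 to 0.578 in H69M over 6 pairs of groups each, and -0.107 to 0.0457 between lines. These values were read as pairing by replicate number within a line, which the labels do not state. The fit behind the unmarked values has no block and so ignores that pairing. Its SE can be larger for it. LAMA4 in H69 cytoplasmic RNA stood at 32.8% and 33.75% of control in same-numbered libraries, with SE 0.493 without the block and 0.208 with it. Blocked values are given beside results where they change a call or a count, and beside some others. Tested on simulated counts, the fit called 25 of 50 genes changed 4-fold and 44 of 50 changed 8-fold in H69 cytoplasmic RNA, 27 and 41 in H69M cytoplasmic RNA and 33 and 39 in H69M polysomal RNA, with 4 unchanged genes called in each.

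All 7 members and EIF6 were named whatever their values; of each family list the genes that passed and up to 4 with the highest mean CPM could be named, and for likeness the 3 genes of highest Pearson r. DSG2 and CRYBG2 were named because they passed in the blocked fit, after their values were seen. The members, lists and tests were chosen with earlier results of these data known. The 3% limit for H69 genes in H69M libraries was set after seeing the data. Protein sequences were not used here, and some genes of the lists are not reported here.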

Additional observations from a re-analysis of the deposited data

Results flagged for a closer look

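For 2 members the cytoplasmic knockdown change had opposite directions in the 2 lines, with no overlap between knockdown and control in either. Over all genes tested, 34.3% did not overlap in H69 cytoplasmic RNA and 39.8% in H69M cytoplasmic RNA. In H69M cytoplasmic RNA 20.4% of all genes were higher without overlap and 19.3% lower. The share of genes with opposite directions in the 2 lines was not counted, so the 2 members are not set apart from other genes. LAMA4 was lower in knockdown H69 and higher in knockdown H69M, a log2 difference of -2.46 (H69 minus H69M; adjusted p = 0.546; with the block, adjusted p = 0.00930). Over single omissions it ran from -3.25 without H69 sheIF6 cytoplasmic replicate 1 to -1.655 without H69 shNTC cytoplasmic replicate 1. KCNS3 was higher in knockdown H69 and lower in knockdown H69M, a difference of 3.19 (adjusted p = 0.285; blocked 0.0627).

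In polysomal RNA 4 members did the same, being lower in knockdown H69 and higher in knockdown H69M: HMCN1 differed by -5.75, RASGRP1 by -3.21, LAMA4 by -2.67 and TBX2 by -2.45. These polysomal differences were not tested, because the H69 side of each chose the genes. Over all genes tested, 22.7% did not overlap in H69 polysomal RNA and 32.6% in H69M polysomal RNA. In H69M polysomal RNA 15.9% of all genes were higher without overlap and 16.7% lower. Here too the share with opposite directions was not counted, so the count of 4 is a description. RASGRP1 in H69M polysomal RNA rests in part on the H69M libraries numbered 2, where genes of H69 summed to 7.78% (sheIF6) and 11.8% (shNTC) of their H69 level; its part in the result was not tested.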

How the results depend on the processing

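The limits lie in the spread between 2 libraries and in the few counts of HMCN1 in the H69 knockdown. Counts of genes called moved with the method. In H69 cytoplasmic RNA 0 became 2 without the filter, 78 by DESeq2, 1 with the block within each line and 4 without both H69 shNTC libraries numbered 1 (0 to 38 over single omissions). In H69 polysomal RNA 1 became 4 without the filter, 92 by DESeq2, 0 by limma-voom, 2 and 25 with the block over both lines and within each line, and 4 when either pair of libraries was left out (1 to 4 over single omissions). In H69M cytoplasmic RNA 36 became 55, 458 and 102 by no filter, DESeq2 and limma-voom, and 72 and 268 with the 2 blocks (0 to 105). In H69M polysomal RNA 15 became 0 by total size, 336 by DESeq2, 42 by limma-voom, 29 and 203 with the 2 blocks and 0 without the H69M polysomal libraries numbered 2 (0 to 21). For the difference between lines 7 became 1 by total size, 12 without the filter, 95 by DESeq2, 0 by limma-voom, 0 and 32 with the 2 blocks, 1 without the H69 shNTC libraries numbered 1 and 0 without the H69M polysomal ones numbered 2 (0 to 7). H69M against H69 gave 4611 of 6987 without the H69 shNTC libraries numbered 1 (4530 to 7164). Polysomal against cytoplasmic RNA of control H69M gave 1085, and 2809 by DESeq2, 2564 with the block within each line, 494 and 144 without the H69 or H69M pairs (110 to 1097).

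Members called in H69 cytoplasmic RNA were 0, and 1 without the filter and 5 by DESeq2 (0 to 2 over single omissions). In H69 polysomal RNA they were 1, and 3, 5, 0, 2 and 7 without the filter, by DESeq2, by limma-voom and with the 2 blocks (0 to 2). The H69 polysomal calls follow from the choice of the members and are descriptions. The block within each line called 1 member in H69M cytoplasmic RNA, 1 for the line difference and 1 for polysomal against cytoplasmic RNA. For the line difference 1 was called without the filter and 4 by DESeq2, and for polysomal against cytoplasmic RNA 1 by DESeq2 (0 to 1).

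Directions turned only for values that had not passed. Given with the range over single omissions, AIM1 between the lines was 0.14 without H69 shNTC cytoplasmic replicate 1, also with its polysomal partner (-0.80 to 0.14). In H69M cytoplasmic RNA PKP2 was -0.076 without shNTC replicate 1 (to 1.26), TBX2 -0.0026 without sheIF6 replicate 1 (to 0.71), and HMCN1 -0.32 (to 0.75) and RASGRP1 -0.40 (to 0.74) without sheIF6 replicate 2. KCNS3 in H69M polysomal RNA was -0.20 without shNTC replicate 2 (to 0.63) and -0.088 without both libraries numbered 2. PKP2 polysomal against cytoplasmic was 0.74 without H69M shNTC cytoplasmic replicate 2 and 0.34 without polysomal replicate 1 (-0.65 to 0.74), and the EIF6 line difference was 0.15 without H69M sheIF6 cytoplasmic replicate 1 (-0.60 to 0.15). Of all values of members 1230 kept direction and side of the limit, 35 newly passed, 25 were lost and 10 turned. Total-size scaling moved the median of all genes by -0.25 for polysomal against cytoplasmic RNA and by -0.14 between the lines. The cause of these shifts was not tested.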
